A study of Mus musculus with 6 samples.

Results

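A set of 10 genes of the perineuronal net and its lectican matrix was followed in the medial prefrontal cortex (mPFC) of mice trained with morphine. They were taken by gene name and not by their measured values, but with earlier results of these data known. Of these genes, 10 of 10 were found among the 31763 genes of the table and passed the filter on low counts. They encode the lecticans aggrecan (Acan), brevican (Bcan), neurocan (Ncan) and versican (Vcan), the link proteins Hapln1 and Hapln4, the tenascins Tnr and Tnc, the receptor phosphatase Ptprz1 and the hyaluronan synthase Has3. RNA was sequenced from 3 saline and 3 morphine samples of male C57BL/6J mice aged 8 to 10 weeks. Saline mice were injected with 10 ml/kg saline and morphine mice with 10 mg/kg morphine, i.p. in both cases, over 5 days of conditioned place preference training, in which a chamber is paired with the injection. Tissue was taken on day 13, after a week in the home cage and a test of preference, so that both groups had been handled, injected and tested alike. Whether a sample is 1 animal or a pool was not given in the sources used here, so a p-value reflects the spread among these samples, which may be technical.

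The perineuronal net is a mesh of extracellular matrix around the cell body and proximal dendrites of certain neurons, in cortex above all the fast-spiking interneurons that express parvalbumin. Hyaluronan chains made at the cell membrane form its backbone, lecticans bind to them with their amino-terminal end, link proteins lock that bond, and tenascin-R ties the other ends of the lecticans together. Lecticans are chondroitin sulfate proteoglycans and also make up the looser matrix between cells. The net closes periods of high plasticity and has been studied for its part in the stability of memories.

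The genes of lecticans and link proteins lie in pairs in the mouse genome. On GRCm38, Acan (chr7:79053483-79115099, plus strand) ends 2 bp from the end of Hapln3 (chr7:79115102-79131018, minus strand). Ncan (chr8:70093085-70120873, minus strand) and Hapln4 (chr8:70083457-70090862, plus strand) are 2222 bp apart, Bcan (chr3:87987531-88000230, minus strand) and Hapln2 are 21519 bp apart, and Vcan (chr13:89655312-89742509, minus strand) and Hapln1 (chr13:89539796-89611652, plus strand) are 43659 bp apart. In each of the 4 pairs, 0 protein-coding genes lie between the partners. Tnr (chr1:159523769-159931729), Ptprz1 (chr6:22875502-23052916) and Has3 (chr8:106870242-106884566) are on the plus strand and Tnc (chr4:63959785-64047015) is on the minus strand. The annotation gives Vcan 8 protein-coding transcripts, Tnc 4 and Ptprz1 3, and counts per gene cannot tell the short and long forms of these proteins apart. Has3 overlaps the opposite-strand gene Chtf8, which had 1022 to 1414 counts per library against 40 to 73 for Has3. The strand setting of the counts was not given in the sources used here, and without it reads of the 2 genes cannot be told apart.

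Acan, Vcan and Tnc were the net genes furthest above the other libraries in saline sample 1, as described below, and the 100 bases before their RefSeq starts are shown for that reason. They are written 5′ to 3′ on the transcript's strand of GRCm38.p6, and capitals mark GC boxes (GGGCGG on either strand). The stretch of Tnc has no capitals, as its GC box begins 167 bases before this start, outside the bases shown. A second RefSeq start of Tnc is not shown.
Acan, chr7:79053126-79053225, plus strand: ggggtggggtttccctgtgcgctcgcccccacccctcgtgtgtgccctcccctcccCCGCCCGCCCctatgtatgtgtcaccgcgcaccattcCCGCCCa
Vcan, chr13:89742513-89742612, minus strand: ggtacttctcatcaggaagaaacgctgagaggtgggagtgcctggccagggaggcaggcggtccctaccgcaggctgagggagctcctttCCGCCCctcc
Tnc, chr4:64047016-64047115, minus strand: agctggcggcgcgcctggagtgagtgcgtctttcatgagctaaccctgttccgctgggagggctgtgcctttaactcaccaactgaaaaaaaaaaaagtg
RefSeq promoters were matched for 8 of the 10 genes, with 9 starts since Tnc has a second one. In the 250 bases before the start, 6 of these 8 genes hold a GC box (Acan, Bcan, Ncan, Ptprz1, Tnc and Vcan), with the overlapping windows of Tnc counted once, against 32.7% of 32851 mouse promoters of the same length, and 0 of the 9 windows hold the AP-1 motif TGANTCA, against 6.75%. The letters TATAA stood, on either strand, in the last 50 bases before the start in 2 of 9, those of Ncan and of the second start of Tnc, against 6.36%. The Acan promoter is the richest in G and C of the 9, at 74.4% with 26 CpG, while that of Vcan has 62.4% and those of Tnc 44.8% and 51.2%; the median promoter has 52.4% and 6 CpG. These are matches of letters and not shown to be sites.

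Libraries held 17984153 to 23529592 counts. Saline sample 1 stood apart from the other 5. Markers of the olfactory bulb summed to 1023 normalized CPM (read counts scaled to library size by TMM) in it and to 307 to 346 elsewhere, and 18 of 20 of these markers were over 2 times the highest other library there, against 0 in any other library. The marker lists were chosen with saline sample 1 already known to be high in bulb genes. This count therefore describes that sample and is not a test. Eomes, a gene of the bulb's output neurons, had 462 counts in saline sample 1 and at most 7 elsewhere. Markers of neuroblasts and the ventricular zone were also highest there, at 568 CPM against 360 to 376 CPM. The cortical neuron list was lowest there, at 7296 CPM against 8200 to 9005 CPM. The fold change of each net gene is therefore given with and without saline sample 1, which leaves 2 saline libraries, and in bulk tissue fewer cells of a type cannot be told apart from less RNA per cell.

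**Figure D1:**
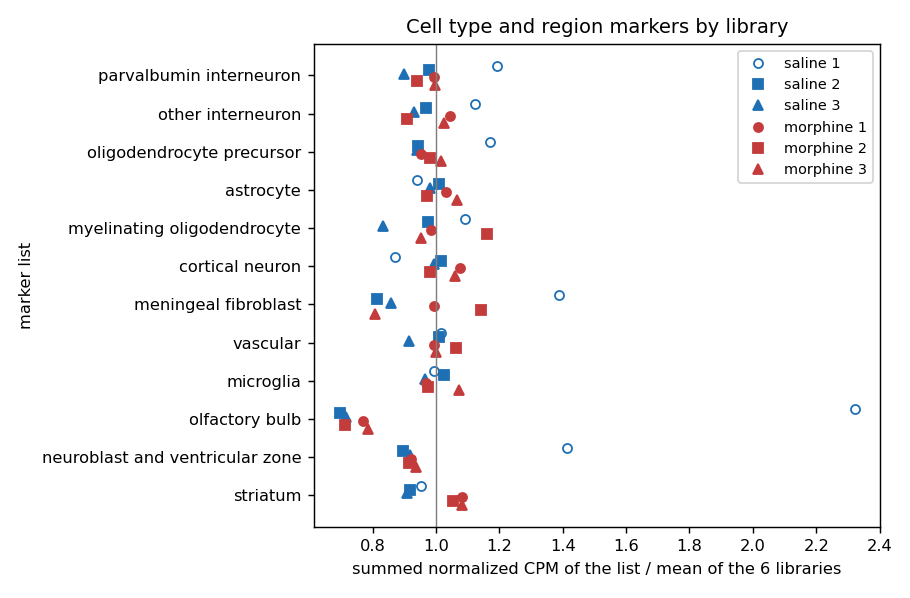
Summed normalized CPM of 12 lists of marker genes in each library, divided by the mean of the 6 libraries (horizontal axis); blue is saline, red morphine, and the open circle is saline sample 1. Olfactory bulb markers sit at 1023 CPM in saline sample 1 and at 307 to 346 CPM in the other 5 libraries.

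Levels per transcript length spanned more than 2 orders of magnitude on the authors' FPKM scale, which divides counts by gene length and library size. Ncan was the highest at 61.2 ± 4.20 FPKM (SD, n = 6 libraries), followed by Bcan at 44.0 ± 1.25 FPKM and Tnr at 29.1 FPKM (27.5 to 31.0). Hapln4 at 22.5 ± 3.43 FPKM and Ptprz1 at 20.4 ± 1.71 FPKM came next, with ranges that overlapped over the 6 libraries, Hapln4 lying above Ptprz1 in 5 of 6. A gap separated these abundant components from the rest. Hapln1 was at 5.11 ± 0.213 FPKM, Vcan at 2.52 ± 0.536 FPKM, Tnc at 0.999 ± 0.243 FPKM, Acan at 0.749 ± 0.207 FPKM and Has3 at 0.438 ± 0.0673 FPKM. Tnc and Acan had overlapping ranges, 0.803 to 1.46 and 0.560 to 1.14 FPKM, although Tnc was above Acan in 6 of 6 libraries. Every other gene lay above its lower neighbour without overlap.

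**Figure D2:**
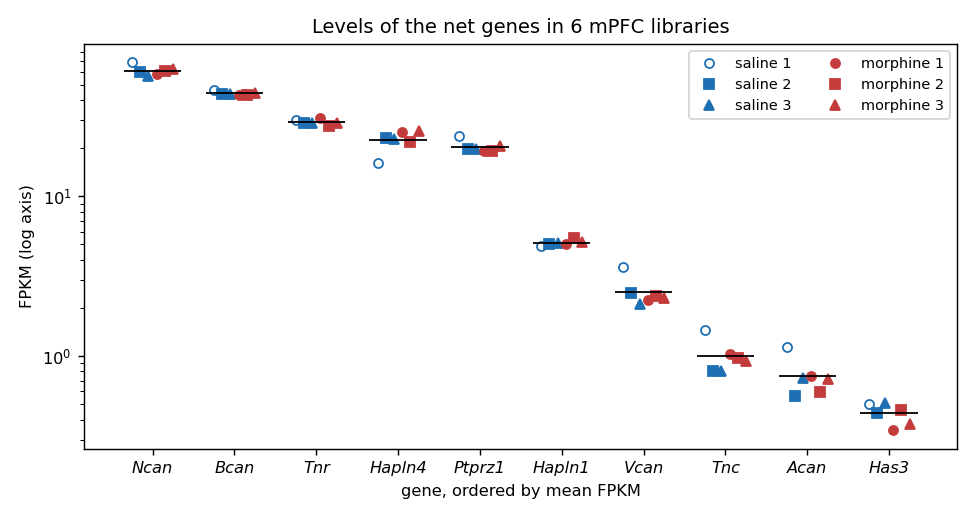
FPKM (log axis) of the 10 net genes in 6 libraries, ordered by the mean (black line); blue is saline, red morphine, and the open circle is saline sample 1. Means run from 61.2 FPKM for Ncan to 0.438 FPKM for Has3, and saline sample 1 stands above the rest for Vcan, Tnc and Acan and below it for Hapln4.

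Among the lecticans, which carry the chondroitin sulfate chains, brain-specific neurocan and brevican took nearly all of the RNA. Ncan made up 56.3% ± 1.15 of the summed lectican FPKM in saline and 56.6% ± 0.595 in morphine (SD, n = 3 each), and Bcan 40.6% ± 1.76 and 40.6% ± 0.546. Vcan held 2.46% ± 0.479 in saline and 2.16% ± 0.0650 in morphine, and Acan, the lectican that marks nets around parvalbumin cells, 0.727% ± 0.213 and 0.644% ± 0.0805. The make-up of the lectican pool thus differed between the groups by less than the SD of the saline samples for each of the 4 genes. That SD includes saline sample 1. Measured against the SD of the morphine samples, the shares of Vcan and Acan differed by more, and those of Ncan and Bcan by less. In saline sample 1 the Acan share was 0.951% and the Vcan share 2.99%, above the 0.527% to 0.719% and 2.06% to 2.33% of the other 5 libraries.

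None of the 10 net genes passed an adjusted p of 0.05 in the comparison of morphine with saline, by edgeR's quasi-likelihood F test adjusted over 18970 genes. At an unadjusted p under 0.05 it called 0 of 10, where 7.72% of all genes tested were called, and 0 of 10 also had a fold change over 2 at that p, where 0.664% were. Adjusted over all genes, edgeR called 0% of them, 0 of 18970. DESeq2 called 0 of 10 at an adjusted p under 0.05, where 0.103% of the 14505 genes with an adjusted p (15) were called, and 0 of 10 at an unadjusted p, where 3.2% of 31738 were. The groups overlapped for each of the 10 genes, while 13.3% of all genes tested had groups that did not overlap. The median log2 fold change of the 10 genes was -0.04, with 3 above and 7 below 0, against -0.01 over all genes tested. Without saline sample 1 the median was 0.04, with 9 above and 1 below 0, against 0.00 over all genes. In that fit edgeR again called 0 of 10, at an unadjusted p under 0.05, where 11.7% of all genes were called, and at an adjusted p, where 0.996% (186 genes) were.

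**Figure D3:**
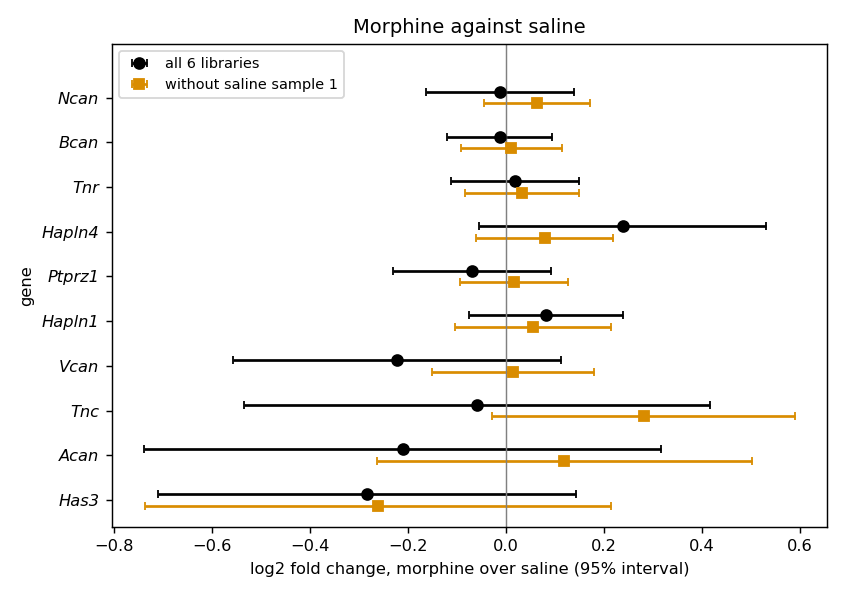
Log2 fold change of the 10 net genes, morphine over saline, with the 95% interval of edgeR's fit over all 6 libraries (black circles) and without saline sample 1 (orange squares). Every interval includes 0, and leaving out saline sample 1 moves Acan from -0.21 to 0.12 and Vcan from -0.22 to 0.01.

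The abundant lecticans differed little between libraries, with coefficients of variation over the 6 libraries of 2.33% for Bcan, the lowest of the 10 genes, and 6.24% for Ncan. Bcan was at 185, 177 and 177 normalized CPM in the saline samples (in the order 1, 2, 3 here and below) and at 177, 174 and 182 CPM in the morphine samples, and the libraries of both groups interleaved. Its log2 fold change of -0.01 had a 95% interval of -0.12 to 0.09, which spans fold changes of 0.920 to 1.07, and was 0.01 (-0.09 to 0.12) without saline sample 1. Ncan, which neurons and astrocytes both make, was at 486, 431 and 409 CPM in saline and at 426, 431 and 458 CPM in morphine, with the highest value in saline sample 1. Its interval ran from -0.16 to 0.14 around -0.01, and from -0.04 to 0.17 around 0.06 without that sample. As folds, the interval of Ncan with all libraries spans 0.893 to 1.10.

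Vcan, the versican that oligodendrocyte precursors and vascular cells also make, was at 50.9, 35.8 and 30.7 CPM in saline and at 32.7, 34.1 and 34.0 CPM in morphine. Saline sample 1 alone was high, 1.42 times the next library, and the other 5 lay between 30.7 and 35.8 CPM. The log2 fold change was -0.22 (standard error 0.15, adjusted p = 0.72 in edgeR) with all libraries and 0.01 (standard error 0.08) without saline sample 1. Leaving out saline sample 3, the lowest library, gave -0.36 at an unadjusted p of 0.0185 and an adjusted p of 0.687 in edgeR. Acan, with 80 to 194 counts per library, was at 8.35, 4.19 and 5.41 CPM in saline and at 5.69, 4.41 and 5.45 CPM in morphine. Again saline sample 1 was the highest, at 1.47 times the next library, and the morphine values lay within the saline range. Its log2 fold change went from -0.21 (95% interval -0.74 to 0.32) to 0.12 (-0.26 to 0.50) without saline sample 1. At this depth the counting error of Acan alone is 7.18% to 11.2% of its value. Changes of Acan within the 95% interval of its log2 fold change were not excluded.

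The link proteins, which hold lecticans to hyaluronan, behaved differently from each other in saline sample 1. Hapln4, a brain link protein that partners with brevican in nets, was at 62.1, 91.4 and 89.7 CPM in saline and at 100, 84.4 and 102 CPM in morphine. Saline sample 1 was the lowest library, at 0.664 times the mean of the other 5, and the other saline samples fell between morphine samples 2 and 1. The log2 fold change of Hapln4 was the largest above 0, at 0.24 (95% interval -0.05 to 0.53, adjusted p = 0.68 in edgeR), and 0.08 (-0.06 to 0.22) without saline sample 1. Without saline sample 2 it was 0.33, at an unadjusted p of 0.0392 and an adjusted p of 0.573 in edgeR. Hapln1, which nets in cortex need to form fully, varied little. It was at 28.2, 29.7 and 30.1 CPM in saline and at 29.9, 32.1 and 31.0 CPM in morphine. Morphine sample 1 lay among the saline samples and the other morphine samples above them, with a log2 fold change of 0.08 (95% interval -0.08 to 0.24), and 0.06 (-0.10 to 0.21) without saline sample 1.

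Ratios between the paired genes set saline sample 1 apart for Hapln4 with Ncan and for Hapln1 with Vcan, but not for the other pairs. The FPKM ratio of Hapln4 to its neighbour Ncan was 0.234 in saline sample 1 and 0.359 to 0.431 in the other 5 libraries, and that of Hapln1 to its neighbour Vcan was 1.36 against 2.03 to 2.40. Morphine libraries lay on both sides of saline samples 2 and 3 for the first ratio and between them for the second. The ratio of Hapln2 to Bcan was 0.0447 in saline sample 1, within the 0.0322 to 0.0516 of the other libraries. Hapln3, which is no member of the set but is the neighbour of Acan, was low relative to Acan in morphine. Its FPKM was 0.526, 0.645 and 0.501 times that of Acan in the saline libraries and 0.351, 0.399 and 0.236 times that of Acan in the morphine libraries. These ratios did not overlap between the groups, with or without saline sample 1, and rest on 14 to 48 counts of Hapln3. The CPM of Hapln3 by itself did not overlap either, so the ratio is not a separate result. Single genes without overlap made up 13.3% of those tested, and no such share was computed for ratios. The other paired ratios overlapped.

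Tenascin-R, the cross-linker of the net made by oligodendrocyte lineage cells and some interneurons, had a coefficient of variation of 4.75% over the 6 libraries. Tnr was at 379, 370 and 366 CPM in saline and at 404, 350 and 375 CPM in morphine, with the highest and the lowest library of the 6 both in the morphine group. The log2 fold change was 0.02 (95% interval -0.11 to 0.15), and 0.03 (-0.08 to 0.15) without saline sample 1. Within its span lie the non-coding Gm37731 and Gm10530 on the same strand, with 121 to 197 and 54 to 88 counts, against 6352 to 8798 for Tnr. Tenascin-C (Tnc), which astrocytes and the ventricular zone express and which is scarce in adult cortex, was at 11.2, 6.31 and 6.22 CPM in saline and at 8.06, 7.44 and 7.35 CPM in morphine. Saline sample 1 lay above all morphine libraries and the other saline samples below them. The log2 fold change therefore turned from -0.06 (95% interval -0.53 to 0.42) to 0.28 (-0.03 to 0.59, unadjusted p = 0.0726 and adjusted p = 0.483 in edgeR) without saline sample 1.

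Ptprz1, whose secreted form phosphacan is a chondroitin sulfate proteoglycan that binds tenascins and contactin, was at 331, 281 and 279 CPM in saline and at 275, 273 and 301 CPM in morphine. It was highest in saline sample 1, and its log2 fold change of -0.07 (95% interval -0.23 to 0.09) became 0.02 (-0.09 to 0.13) without that sample. Has3, a synthase that extrudes hyaluronan through the cell membrane, was at 3.14, 2.82 and 3.21 CPM in saline and at 2.21, 2.92 and 2.42 CPM in morphine. Morphine samples 1 and 3 were below all saline libraries, and morphine sample 2 lay within the saline range. Its log2 fold change was -0.28 (95% interval -0.71 to 0.14, adjusted p = 0.72 in edgeR) and -0.26 (-0.74 to 0.21) without saline sample 1, and its spread over the 6 libraries, a coefficient of variation of 14.3%, lay within its counting error of 11.7% to 15.8%.

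**Figure D4:**
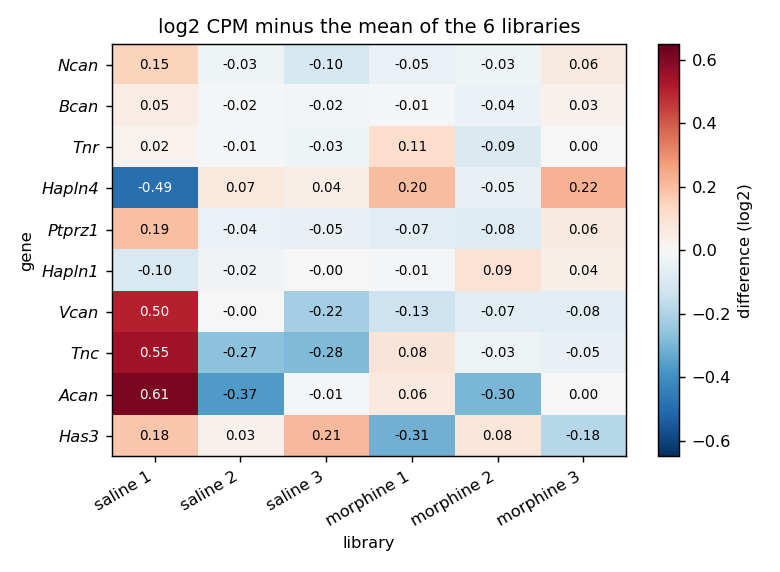
Log2 CPM of each net gene (ordered by FPKM from top to bottom) in each library minus the mean of the 6 libraries; red is above and blue below the mean. Saline sample 1 holds the most extreme value for Acan (0.61), Tnc (0.55), Vcan (0.50) and Hapln4 (-0.49), while Tnr reaches 0.11 and Bcan 0.05.

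Saline sample 1 was the highest library for 6 of the 10 genes and the lowest for 2, where it was the highest for 24.9% and the lowest for 22.1% of all genes tested. For 3 of 10, Acan, Tnc and Vcan, it was over 1.5 times the mean of the other 5 libraries, where 5.85% of all genes were. Over the other 5 libraries the coefficient of variation was 5.67% for Vcan, 11.2% for Tnc, 13.5% for Acan and 7.88% for Hapln4, against 20.1%, 23.3%, 26.6% and 16.4% over all 6. The part of the bulb markers in these values was not tested.

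Markers of the cells that make net components did not all move together in saline sample 1. Pvalb, the calcium buffer that names the net-bearing interneurons, had 233 counts there and 338 to 441 in the other libraries, 0.518 times the mean of the other 5 in CPM. The synaptotagmin gene Syt2 and the interneuron transcription factor gene Lhx6 were also low, at 0.559 and 0.590 times that mean, on the same side as Hapln4. Gad1 and Gad2, the GABA synthesis genes of all inhibitory neurons, were instead at 2.20 and 1.54 times. The summed list of 14 parvalbumin interneuron markers, which holds both, was highest in saline sample 1, at 1868 CPM against 1410 to 1563 CPM, but without Gad1 and Gad2 it was at 1070 CPM, within the 1024 to 1134 CPM of the other libraries. Of its 14 genes, 7 were above and 7 below the mean of the other 5 libraries. Gfap and Aqp4, astrocyte genes, were at 2.20 and 1.42 times. The whole astrocyte list of 12 was lowest there, at 7075 CPM against 7312 to 8020 CPM, but Slc1a2 alone made up most of that sum, and the other 11 genes summed to 1808 CPM there and to 1509 to 1696 CPM elsewhere. Of the 12, 7 were above and 5 below the mean of the other 5 libraries, and 5 were highest in saline sample 1. The list of 10 oligodendrocyte precursor markers was at 243 CPM there and at 195 to 211 CPM elsewhere, with Pdgfra itself at 1.02 times. Of these 10, 10 were above the mean of the other 5 libraries, and 8 were highest in saline sample 1. Of the genes named here, Eomes had 0 counts in saline sample 3 and the others had counts in all libraries. Syt2, Lhx6, Gad1 and Gad2 were picked from the list after their values had been seen.

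Between the groups the summed marker lists of the net's makers overlapped. The parvalbumin interneuron list summed to 1410 to 1868 CPM in saline and 1473 to 1563 CPM in morphine, the oligodendrocyte precursor list to 195 to 243 and 198 to 211 CPM, and the astrocyte list to 7075 to 7601 and 7312 to 8020 CPM. In the precursor list 4 fold changes were above and 6 below 0, at a median of -0.08. EdgeR called 2 of its 10 genes (20%) at an unadjusted p under 0.05, both lower, where 940 of 18970 genes were lower. Groups did not overlap for 2 of 10 (20%), both lower in morphine, as for 1386 of 18970 genes. Without saline sample 1 edgeR called 0 of 10, where 11.7% of all genes were called, with 8 above and 2 below 0. With all libraries edgeR called 0 of 14 parvalbumin interneuron genes and 1 of 12 astrocyte genes (8.33%) at that unadjusted p. For Pvalb the log2 fold change with all libraries was 0.30 (standard error 0.21). That value includes saline sample 1, the library with the fewest Pvalb counts, and the value without that sample is not given here. The myelinating oligodendrocyte list summed to 1269 to 1662 CPM in saline and 1448 to 1769 CPM in morphine, and the cortical neuron list to 7296 to 8514 and 8200 to 9005 CPM. Log2 fold changes of these lists were above 0 for 10 of 10 genes each, at medians of 0.13 and 0.12, with 1 and 2 genes higher at an unadjusted p under 0.05 in edgeR. Over all genes tested, 9002 of 18970 were above 0, 525 were higher at that p and 7.72% were called in either direction. Groups did not overlap for 1 of 10 (10%) and 4 of 10 (40%), all higher in morphine. Of all genes tested, 13.3% did not overlap in either direction, and 1136 of 18970 were higher without overlap. Without saline sample 1, fold changes were again above 0 for 10 of 10 in both lists, at medians of 0.20 and 0.08. In that fit 6 and 2 genes were higher at an unadjusted p under 0.05 in edgeR, where 11.7% of all genes were called. Meningeal fibroblast and vascular lists overlapped too, at 52.3 to 89.3 against 51.9 to 73.6 CPM and at 242 to 268 against 263 to 281 CPM. The summed list of striatal neurons did not overlap, at 216 to 227 CPM in saline and 251 to 257 CPM in morphine. Its genes did not all go this way, with 6 above and 3 below 0 of 9 tested, at a median of 0.06. Of the 9, 2 (22.2%) were higher at an unadjusted p under 0.05 in edgeR. Groups did not overlap for 3 of 9 (33.3%), all higher in morphine, as for 1136 of 18970 genes. Without saline sample 1, 8 were above and 1 below 0, with 2 higher at that p and 1 at an adjusted p under 0.05. The part of these lists in the values of the net genes was not tested.

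The wider matrix machinery was read from 4 lists of genes chosen by name, in which 0 genes passed an adjusted p of 0.05 in edgeR. In the list of hyaluronan and other matrix genes, 3 were higher and 2 lower of 23 tested at an unadjusted p under 0.05 (21.7%, where 7.72% of all genes were called), at a median log2 fold change of 0.02. The 3 higher calls became 0 without morphine sample 1, 1 without morphine sample 3 and 0 to 1 in limma on FPKM, and the 2 lower calls became 1 without either of these libraries and in DESeq2. Cd44, a cell surface receptor of hyaluronan, was at 4.61, 4.19 and 3.67 CPM in saline and 7.02, 5.01 and 4.97 CPM in morphine, a log2 fold change of 0.44 (standard error 0.18, adjusted p = 0.622 in edgeR). Cemip, which takes part in the breakdown of hyaluronan, was at 0.24 and the testican gene Spock1 at 0.21. Hapln3 had 48, 27 and 25 counts in saline and 17, 15 and 14 in morphine, and the groups did not overlap in CPM. The same held for 6 of the 23 genes (26.1%, 3 higher and 3 lower, Hapln3 included), where 13.3% of all genes did not overlap. The log2 fold change of Hapln3 was -0.98 (standard error 0.32, adjusted p = 0.605 in edgeR), and -0.70 at an unadjusted p of 0.0607 in edgeR without saline sample 1. Cspg4, the NG2 proteoglycan of oligodendrocyte precursors and pericytes, was at 31.4, 32.3 and 35.4 CPM in saline and at 29.1, 28.9 and 28.5 CPM in morphine. Its log2 fold change was -0.19 (standard error 0.07), and -0.23 without saline sample 1. Without it Cd44 and Spock1 were at 0.52 and 0.13, and Cemip at 0.12, Cemip and Hapln3 no longer passing an unadjusted p of 0.05 in edgeR. Sparcl1 (0.12), named after its value had been seen, passed it there, so that 3 were higher and 1 lower (Cspg4), at a median of 0.12 with 15 above and 8 below 0. The link protein gene Hapln2, of myelinated axons, was at 0.13 (standard error 0.19).

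Enzymes that build and sulfate chondroitin chains gave 0 higher and 0 lower of 23 tested at an unadjusted p under 0.05 in edgeR, at a median of 0.00. Those of lowest p were Dse, which turns chondroitin into dermatan sulfate, at -0.22 (standard error 0.13), and Csgalnact1, which starts the chain, at -0.14 (standard error 0.08). Groups did not overlap for these and for Chst14 (-0.40) and Chsy3 (-0.08), named after their values had been seen, all 4 lower in morphine. This is 17.4% of the list. Of all genes tested, 13.3% did not overlap in either direction, and 1386 of 18970 were lower without overlap. Without saline sample 1, Dse and Csgalnact1 were at -0.13 and -0.06. Matrix proteases and their inhibitors also gave 0 higher and 0 lower, of 23 tested, at a median of -0.03. The protease inhibitor gene Timp4 was at 0.17 (standard error 0.08) and the protease gene Adamts8 at 0.29 (standard error 0.14), and for both the morphine libraries all lay above the saline ones. With Adamts20 (-0.13), lower and named after its value had been seen, 3 of 23 (13%) did not overlap. Timp4 and Adamts8 were at 0.13 and 0.32 without saline sample 1. In that fit edgeR called 2 higher of the chain enzymes, Xylt1 (0.14) and Chst11 (0.13), and 1 higher of the proteases and inhibitors, Timp3 (0.13), which were named after their values had been seen.

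Receptors and ligands of the net gave 2 higher and 2 lower of 26 tested at an unadjusted p under 0.05 in edgeR (15.4%, where 7.72% of all genes were called), at a median of 0.00. These became 0 higher and 0 lower in limma on FPKM and, with 1 library left out, 0 (without morphine sample 1) to 4 (without saline sample 2) higher and 0 (without saline sample 1 or 3) to 2 lower. Sema3a, a guidance cue that binds to the chondroitin chains of nets, was at 58.8, 48.2 and 54.1 CPM in saline and at 47.8, 46.2 and 45.8 CPM in morphine, without overlap. This is a log2 fold change of -0.21 with a standard error of 0.08. Groups did not overlap for 2 of the 26 genes (7.69%, 1 higher and 1 lower), where 13.3% of all genes did not overlap. The plexin receptor gene Plxna3 was at -0.22 (standard error 0.10) and Plxna1 at 0.15 (standard error 0.07). Rtn4rl2, of the Nogo receptor family that includes receptors of chondroitin sulfate, was at 0.32 (standard error 0.12). Adjusted p-values of these 4 genes in edgeR lay between 0.616 and 0.638. Without saline sample 1 the list gave 1 higher (Rtn4rl2) and 0 lower, where 11.7% of all genes were called, with Sema3a at -0.13, Plxna3 at -0.15, Plxna1 at 0.08 and Rtn4rl2 at 0.21.

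**Figure D5:**
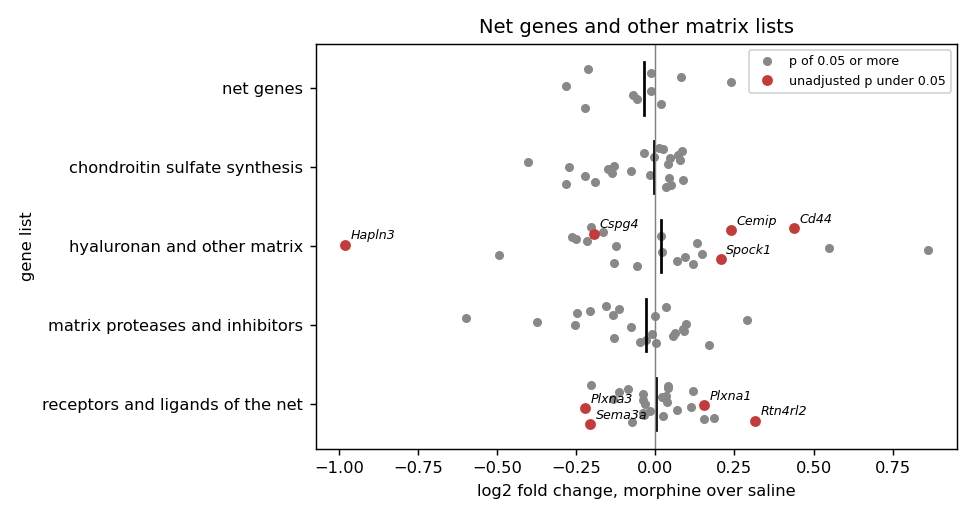
Log2 fold change, morphine over saline, of each tested net gene and each tested gene of 4 matrix lists (rows); red points have an unadjusted p under 0.05 in edgeR and black bars are medians. None of the net genes is red, and Hapln3 at -0.98 is the point furthest from 0.

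The 5 tested genes whose log2 CPM over the 6 libraries followed the mean standardized profile of the net genes most closely were Cct6a, a chaperonin subunit, Hpse, which cleaves heparan sulfate, Agmo, Agbl2 and Impad1. Pearson's r was 0.987 to 0.995 and Spearman's rho 0.829 to 0.943 over 6 libraries, as a description of genes picked for likeness among 18970. In saline sample 1, Hpse was at 2.18 and Agbl2 at 2.23 times the mean of the other 5 libraries. Without saline sample 1 and morphine sample 3, the libraries furthest from the median of the profile, r over the remaining 4 was 0.910 to 0.9865. Not all net genes shared this profile, which was highest in saline sample 1 (0.82). Over the 6 libraries, r with the lecticans was -0.88 to -0.45 for Hapln4, -0.72 to -0.47 for Hapln1 and -0.009 to 0.35 for Has3.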

How the data were processed

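RNA of the mPFC was sequenced from 3 saline and 3 morphine samples, in rRNA-depleted libraries that keep strand. The authors deposited 1 table that holds, for each gene in each library, a read count and the FPKM. Tools named in the submitters' processing notes, with no role given, include HISAT2 2.1.0, StringTie 1.3.3, HTSeq 0.11.2 and cutadapt 1.9.3, and the build named is mm10. The study's methods give StringTie for the FPKM of lncRNAs. The deposited FPKM equal the count divided by 1 gene length and 1 library factor, as tested over 13342 genes with at least 50 counts in all libraries. The strand setting was not given in the sources used here.

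Groups came from the sample titles. A gene was tested if 3 or more of the 6 libraries held at least 10 counts, which left 18970 of 31763. Library sizes were scaled by TMM, and edgeR 4.0.16 (R 4.3.3) was used for a two-sided quasi-likelihood F test, with group as the only term and Benjamini-Hochberg adjustment over all genes tested. The standard error is the log2 fold change divided by the square root of F, and 95% intervals use the t quantile. Alternatives were DESeq2 1.42.0, RLE factors, total counts, other filters, the replicate number as a block, limma 3.58.1 on log2(FPKM + 0.1) and log2(FPKM + 1), and each library left out in turn. Intervals cover the spread between these libraries; counting error is 1 over the square root of the count.

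The 10 genes, the 4 matrix lists and the 12 marker lists were chosen with earlier results of these data known, among them that saline sample 1 is high in olfactory bulb genes. Named genes are the 10, from each matrix list those at an unadjusted p under 0.05 or otherwise the 2 of lowest p, Hapln2, Hapln3, defining markers, overlapping genes and the 5 of most similar profile. Positions are those of GENCODE M21 (GRCm38, the build mm10), and promoters are from RefSeq on GRCm38.p6. Replicates of a group were compared by chi-square over genes that had 20 or more counts in the pair and differed by 2.91 to 14.7 times the degrees of freedom, so all 6 libraries were kept as separate samples.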

Additional observations from a re-analysis of the deposited data

How the results depend on the processing

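In each alternative, 0 of the 10 net genes passed an adjusted p of 0.05. Genes called at that p numbered 0 with all libraries in edgeR, 15 in DESeq2, 279 when low counts were not filtered, 4 on log2(FPKM + 0.1), and 0 to 186 when 1 library was left out, the most without saline sample 1 and 0 without each other library. At an unadjusted p of 0.05, the 525 higher genes became 861 and the 940 lower genes 1638 without the filter, DESeq2 gave 609 lower, and leaving out 1 library gave 250 (without morphine sample 1) to 773 higher and 442 (without morphine sample 3) to 1406 lower; without morphine sample 3, 306 were higher and without morphine sample 1, 504 were lower. Without the filter, 1 net gene was higher, Hapln4 (0.24, adjusted p = 0.156 in edgeR), and 1 lower, Vcan (-0.22, adjusted p = 0.504 in edgeR), at that unadjusted p; with 1 library left out, 0 to 1 were higher (Hapln4 without saline sample 2) and 0 to 1 lower (Vcan without saline sample 3). The cause was not tested.

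The sign of 7 net genes turned when 1 library was left out, over ranges of -0.41 to 0.12 for Acan, -0.032 to 0.011 for Bcan, -0.061 to 0.063 for Ncan, -0.36 to 0.014 for Vcan, -0.20 to 0.28 for Tnc, -0.12 to 0.017 for Ptprz1 and -0.037 to 0.067 for Tnr. All but Tnr turned without saline sample 1; Bcan and Ncan also turned without morphine sample 2, and Ncan and Tnr without morphine sample 1. The log2 fold change of Tnr was also below 0 with total counts as the only scaling (-0.0026), on log2(FPKM + 0.1) with or without the filter (-0.0038) and on log2(FPKM + 1) (-0.0037). The median of the net genes was -0.08 to 0.04 with 1 library left out and -0.06 to -0.01 under the other settings.

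Replicate numbers are shared by the groups in the sample titles, but deviations of same-numbered libraries correlated at only -0.0211 to 0.0153. This gave no sign of pairing over all genes, but it cannot exclude a batch shared by same-numbered samples. With the number as a replicate block, edgeR called 434 genes higher and 881 lower at an unadjusted p of 0.05 and 0 of the 10 net genes, whose median was -0.0117; the receptor and ligand list had 1 higher and 1 lower under the block. Depth limits Has3 and Acan most, at 40 to 73 and 80 to 194 counts per library.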
